A study of Mus musculus with 4 samples.

Results

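A set of 10 genes was read here as a record of the formative state of pluripotency and of the response to FGF-ERK signalling. They were listed by name, 10 of the 24116 genes in the count table, and each was matched by its NCBI gene identifier. *Otx2*, *Pou3f1*, *Sox3* and *Zic2* encode transcription factors, *Fgf4* and *Fgf5* encode FGF ligands, *Dusp6* and *Spry4* encode inhibitors that ERK activity induces, and *Etv4* and *Etv5* encode ETS factors that follow ERK activity. All 10 had enough counts to be tested, and the genes that did not move are described beside those that did.

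Embryonic stem cells pass from the naive state through a formative state before they become primed for the germ layers. FGF4 made by the cells themselves binds FGF receptors and drives the RAS-RAF-MEK-ERK cascade, which moves cells out of the naive state, while LIF holds them in it. ERK activity induces its own inhibitors, among them the phosphatase DUSP6 and the Sprouty proteins, and the ETS factors of the PEA3 family, so that transcripts of these genes are often read as a record of pathway output.

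RNA-seq counts were compared between WT ESCs, from a line labelled N12, and G3 *Terc*-/- ESCs, from a line labelled F35, with 2 libraries of each. *Terc* encodes the RNA template of telomerase, and G3 names the generation 3 without it; the label of the WT line carries G3 as well. Both lines had the C57BL/6 background and grew on feeder cells in medium with 20% FBS and 1000 U/ml LIF. Each genotype was 1 line, so that genotype and line cannot be told apart, and although the study's methods call the libraries of a line biological replicates, nothing in the labels says that they came from separate cultures, so that p-values measure the spread between these libraries, which may be technical. The totals of gene counts were 22057607 and 22520017 for WT and 21898081 and 18047995 for G3 *Terc*-/- ESCs.

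Counts of *Terc* were 7 and 2 in WT ESCs, and no read was counted in the G3 *Terc*-/- libraries (0 in each, which is compatible with up to 3 counts). With so few counts in these poly(A) libraries, *Terc* was not tested between the genotypes. The markers that define ESCs were abundant in all 4 libraries. *Pou5f1* reached 415 RPKM in WT and 541 RPKM in G3 *Terc*-/- ESCs as means of 2 libraries, where RPKM is the TMM-scaled CPM per kilobase of exon, and *Zfp42*, the lowest of the 4 markers, reached 36.2 and 43.5 RPKM.

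The largest fold change among the 10 genes was a rise of *Fgf5*, and the largest decrease was that of *Etv5*. Of the 10 genes, 4 were higher (*Fgf5*, *Sox3*, *Zic2* and *Fgf4*) and 2 were lower (*Etv5* and *Dusp6*) in G3 *Terc*-/- than in WT ESCs, at an adjusted p under 0.05 (edgeR's quasi-likelihood test, Benjamini-Hochberg). By the same rule 43.5% of the 14896 genes tested were called, 21.7% higher and 21.8% lower, so that 6 called of 10 was not far from the share among all genes. The calls within each list below are to be read beside the same shares. At a fold change over 2 with an unadjusted p under 0.05, *Fgf5* alone passed among the 10, where 4.73% of all genes tested passed as higher and 3.13% as lower. The CPM of both libraries of a genotype lay on the same side of both of the other for 9 of the 10, against 70.4% of all genes tested. The median log2 fold change was 0.18 over the 10 genes and 0.01 over all genes tested.

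**Figure D1:**
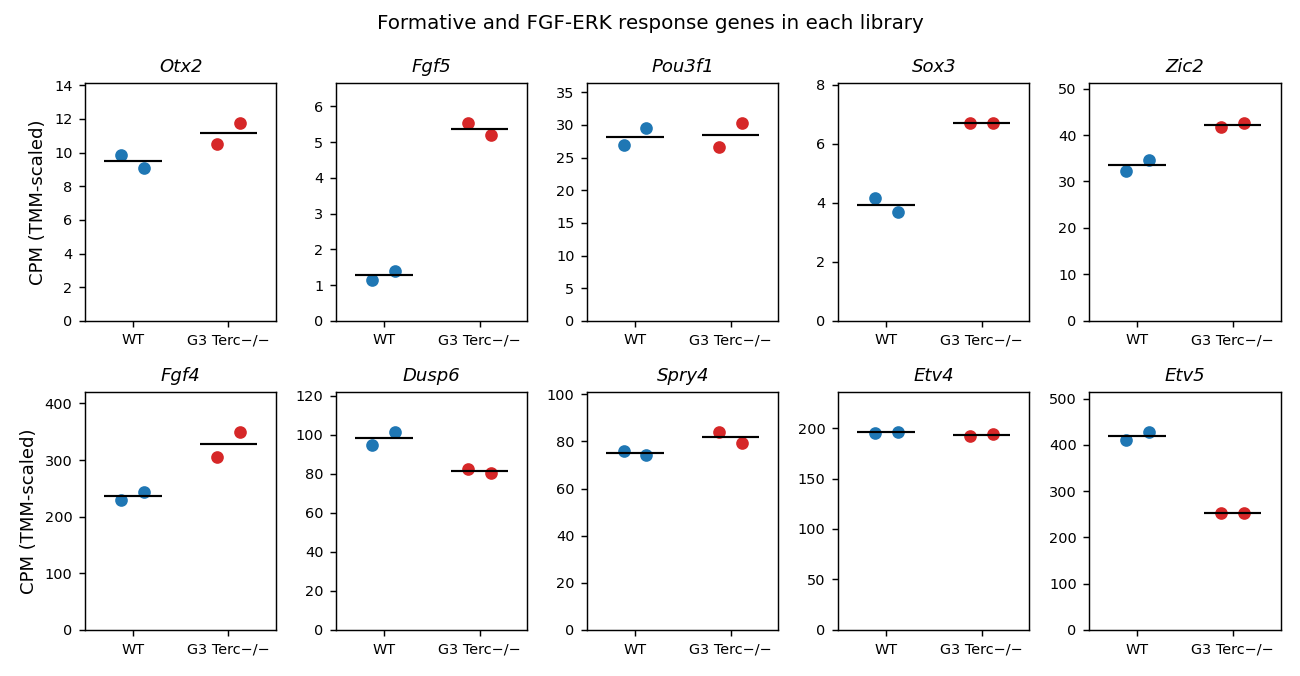
TMM-scaled CPM of the 10 genes in each library of WT (blue) and G3 *Terc*-/- (red) ESCs, with each y axis starting at 0; points are single libraries and black lines are means of 2 libraries. *Fgf5* lies at 1.14 and 1.40 CPM in WT and at 5.55 and 5.21 CPM in G3 *Terc*-/- ESCs, while *Etv5* falls from 410 and 429 CPM to 252 and 254 CPM.

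Among the transcription factors of the formative state, *Sox3*, a SoxB1 factor on chromosome X that is shared with neural progenitors, had 91 and 82 counts in WT libraries against 149 and 122 counts in G3 *Terc*-/- libraries, or 4.17, 3.70, 6.72 and 6.69 CPM in that order. Both G3 *Terc*-/- libraries were above both WT libraries, and the gap was wider than the difference between replicates. *Sox3* was higher by a log2 fold change of 0.77 (SE 0.17, adjusted p = 0.000348, edgeR's quasi-likelihood test, Benjamini-Hochberg). The median log2 fold change over all X-linked genes tested was −0.02. In bulk RNA, more cells with a transcript and more transcript per cell cannot be told apart, for this gene as for the others.

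*Zic2*, a zinc finger factor that occupies enhancers in formative and primed cells, gave 32.2 and 34.7 CPM in the WT libraries and 41.8 and 42.7 CPM in the G3 *Terc*-/- libraries. The genotypes did not overlap, and *Zic2* was higher by a log2 fold change of 0.33 (SE 0.07, adjusted p = 0.000304, edgeR), or 1.26-fold. *Zic5*, which lies on chromosome 14 as *Zic2* does, was not called (−0.04, SE 0.10), and its libraries overlapped at 19.4 and 21.5 CPM in WT and 18.2 and 21.6 CPM in G3 *Terc*-/- ESCs.

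*Otx2* and *Pou3f1*, a homeobox and a POU factor that are switched on as cells leave the naive state, were not called. *Otx2* had 215 and 202 counts in WT and 233 and 215 counts in G3 *Terc*-/- libraries, or 9.85, 9.11, 10.5 and 11.8 CPM. The G3 *Terc*-/- libraries were the higher ones, but by little more than the replicates differed (log2 fold change 0.23, SE 0.13, adjusted p = 0.147, edgeR). *Pou3f1* gave 26.9 and 29.5 CPM in WT and 26.7 and 30.4 CPM in G3 *Terc*-/- libraries. It was the 1 gene of the 10 whose genotypes overlapped, with a log2 fold change of 0.01 (SE 0.08, adjusted p = 0.919, edgeR), and its sign turned without a filter on low counts, without WT replicate 1 (−0.05) and without G3 *Terc*-/- replicate 2 (−0.08). The SoxB1 paralogs of *Sox3* were both higher, *Sox1* by 0.62 (SE 0.16) and *Sox2* by 0.44 (SE 0.05).

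*Fgf5*, the ligand most used as a transcript marker of the formative and primed states, had 25 and 31 counts in WT libraries against 123 and 95 counts in the G3 *Terc*-/- libraries. On the CPM scale these were 1.14, 1.40, 5.55 and 5.21. Both G3 *Terc*-/- libraries stood far above both WT libraries, and the replicates of a genotype lay close together although the counts were low. *Fgf5* was higher by a log2 fold change of 2.08 (SE 0.23, adjusted p = 8.4e-10, edgeR), or 4.22-fold. It stayed the lowest of the 10 genes per length in both genotypes, at 0.508 ± 0.0716 RPKM in WT and 2.15 ± 0.0961 RPKM in G3 *Terc*-/- ESCs (SD, n = 2).

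*Fgf4*, the autocrine ligand of ESCs and a target of OCT4 and SOX2, had 4996 and 5418 counts in WT and 6782 and 6395 counts in G3 *Terc*-/- libraries, or 229, 244, 306 and 351 CPM. All G3 *Terc*-/- values exceeded all WT values, with the replicates of G3 *Terc*-/- ESCs further apart than those of WT ESCs. *Fgf4* was higher by a log2 fold change of 0.47 (SE 0.05, adjusted p = 1.65e-09, edgeR), or 1.39-fold. The ratio of *Fgf5* to *Fgf4* counts, which does not depend on scaling between libraries, was 0.00500 and 0.00572 in WT against 0.0181 and 0.0149 in G3 *Terc*-/- libraries, so that *Fgf5* rose more than *Fgf4* in the same libraries. No p is given for such single values, since a two-sided exact permutation test of 2 libraries against 2 cannot go below 0.333.

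Beside *Fgf4* and *Fgf5*, 12 of the 22 other listed FGF ligands and binding proteins had enough counts to be tested, of which 6 were called higher and 1 lower, with a median log2 fold change of 0.56; DESeq2 called 2 higher, and edgeR 3 without WT replicate 1. *Fgf15* was higher by 1.67 (SE 0.18) and *Fgf1* by 0.62 (SE 0.22), the latter call being lost by DESeq2 and without either WT library or G3 *Terc*-/- replicate 2. *Fgf13* was higher by 0.59 (SE 0.18), a call lost by DESeq2. *Fgf17*, the most abundant of them by counts, was not called (0.08, SE 0.09). Per length *Fgf4*, at 74.0 and 103 RPKM, stood far above *Fgf17*, at 13.2 and 14.0 RPKM. *Fgfbp1*, which encodes a protein that releases FGFs from the matrix, was the 1 gene called lower (−2.14, SE 0.13), from 18.7 and 18.3 CPM to 4.55 and 3.78 CPM.

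The receptors through which *Fgf4* acts did not move together. *Fgfr1*, the main receptor of ESCs, gave 110 and 104 CPM in WT and 105 and 96.5 CPM in G3 *Terc*-/- libraries and was not called (−0.09, SE 0.06), although it was called lower without G3 *Terc*-/- replicate 1 (−0.16). *Fgfr2* was lower (log2 fold change −1.82, SE 0.12), from 21.2 and 25.7 CPM to 6.27 and 7.07 CPM, and *Fgfr3* was lower too (−1.28, SE 0.24), from 4.35 and 3.83 CPM to 1.58 and 1.81 CPM. *Fgfr4* was not called (−0.02, SE 0.20). Per length *Fgfr1* was the highest of the 4 in both genotypes, at 10.9 and 10.2 RPKM against 2.27 and 0.646 RPKM for *Fgfr2*.

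Of 17 receptor and coreceptor genes, 16 were tested, of which 5 were called higher and 7 lower, with a median log2 fold change of −0.06. *Fgfrl1*, a receptor without a kinase domain, was lower (−1.01, SE 0.16), as was *Hs6st1*, the most abundant of the list by counts (−0.28, SE 0.05). The glypicans *Gpc4* and *Gpc3* were higher by 1.19 (SE 0.07) and 0.50 (SE 0.07), and the syndecan *Sdc1* by 0.41 (SE 0.07).

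*Mapk3*, which encodes the kinase ERK1, was lower (log2 fold change −0.52, SE 0.06), from 84.9 and 88.3 CPM in WT to 60.0 and 60.6 CPM in G3 *Terc*-/- libraries. Of the 26 adaptor and cascade genes tested, 4 were called higher and 11 lower, with a median log2 fold change of −0.13; DESeq2 called 1 higher, and edgeR 0 without WT replicate 2. The adaptor *Gab1* (−0.72, SE 0.05) and the ERK-activated kinase *Rps6ka1* (−0.69, SE 0.05) were the lowest. *Frs3* (0.48), *Araf* (0.21) and *Map2k2* (0.16) were the highest, and each of these calls was lost by DESeq2 and without WT replicate 2, those of *Frs3* and *Map2k2* also without G3 *Terc*-/- replicate 1 and that of *Map2k2* without WT replicate 1. Levels of phosphorylated ERK were not analysed here.

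*Dusp6*, the cytoplasmic phosphatase that removes the activating phosphates of ERK, had 2067 and 2256 counts in WT and 1828 and 1467 counts in G3 *Terc*-/- libraries, or 94.7, 102, 82.4 and 80.4 CPM. Both G3 *Terc*-/- libraries lay below both WT libraries. *Dusp6* was lower, with a log2 fold change of −0.27 (SE 0.06, adjusted p = 0.00031, edgeR), which is 1.21-fold. A noncoding gene, *Gm34921*, overlaps *Dusp6* in the annotation, and since the strand setting of the counting is not given in the sources used here, reads of overlapping or antisense genes cannot be told apart.

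*Spry4*, a Sprouty inhibitor of the step from receptor to RAS, went the other way by a small amount and was not called. It gave 75.8 and 74.3 CPM in WT and 84.2 and 79.1 CPM in G3 *Terc*-/- libraries, a log2 fold change of 0.12 (SE 0.06, adjusted p = 0.108, edgeR). The libraries did not overlap, and the call was gained with library totals as the only scaling (adjusted p = 0.0355) and without G3 *Terc*-/- replicate 2 (adjusted p = 0.0252), in a range of adjusted p from 0.0252 to 0.418 over the alternatives. The ratio of *Dusp6* to *Spry4* counts was 1.25 and 1.37 in WT against 0.979 and 1.02 in G3 *Terc*-/- libraries, without overlap.

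Of 22 other feedback inhibitors and phosphatases, 21 were tested, of which 3 were called higher and 10 lower, with a median log2 fold change of −0.08. The ERK phosphatase gene *Dusp9*, X-linked and higher per length than *Dusp6* in both genotypes (72.3 and 39.3 RPKM against 31.4 and 26.0 RPKM), was lower (log2 fold change −0.88, SE 0.05). *Dusp8* (−1.03, SE 0.23), *Spry1* (−0.91, SE 0.11), *Dusp4* (−0.51, SE 0.09) and *Spred2* (−0.40, SE 0.06) were lower too. *Spred1* was lower (log2 fold change −0.19, SE 0.05), a call lost without WT replicate 2. *Spry2*, the most abundant Sprouty gene per length at 65.8 and 74.1 RPKM, was higher by 0.17 (SE 0.05), as were *Rasal2* by 0.30 (SE 0.08) and *Il17rd* by 0.18 (SE 0.06), and none of these 3 calls held without WT replicate 1; that of *Il17rd* was also lost by DESeq2 and without WT replicate 2. The ratio of *Spry4* to *Spry2* counts was 0.567 and 0.527 in WT against 0.546 and 0.510 in G3 *Terc*-/- libraries and overlapped. *Cic*, a repressor that ERK inactivates and the most abundant of the list by counts, was not called (−0.01, SE 0.05).

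*Etv5*, a PEA3 factor that is among the most direct transcript readouts of FGF signalling, had 8959 and 9505 counts in WT libraries against 5584 and 4627 counts in the G3 *Terc*-/- libraries. These were 410, 429, 252 and 254 CPM. Both G3 *Terc*-/- libraries were far below both WT libraries, and the replicates of G3 *Terc*-/- ESCs were nearly equal. *Etv5* was lower, with a log2 fold change of −0.73 (SE 0.05, adjusted p = 3.1e-16, edgeR), which is 1.66-fold, the largest decrease among the 10 genes.

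Its close paralog *Etv4* had 4256 and 4359 counts in WT and 4271 and 3539 counts in G3 *Terc*-/- libraries, or 195, 197, 193 and 194 CPM. The 4 values lay within a narrow band, and *Etv4* was not called (−0.02, SE 0.05, adjusted p = 0.799, edgeR), with a sign that turned with library totals as the only scaling. The ratio of *Etv5* to *Etv4* counts was 2.11 and 2.18 in WT and 1.31 in both G3 *Terc*-/- libraries. *Etv1*, the remaining PEA3 gene, was not called (0.13, SE 0.10). Of the counts on the 3 PEA3 genes together, *Etv5* took 66.1% and 66.8% in WT against 54.6% and 54.4% in G3 *Terc*-/- libraries, while *Etv4* took 31.4% and 30.6% against 41.8% and 41.6%.

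Beside *Etv4* and *Etv5*, 28 ERK-responsive genes were tested, of which 8 were called higher and 9 lower, with a median log2 fold change of −0.01. *Jun* (−1.33, SE 0.07), *Plaur* (−1.20, SE 0.11) and *Fosb* (−0.85, SE 0.06) were the lowest of them. *Egr3* (1.48, SE 0.25), *Emp1* (0.85, SE 0.09) and *Epha4* (0.84, SE 0.13) were the highest. *Epha2*, the most abundant by counts, was not called (−0.02, SE 0.05), although it was called lower without G3 *Terc*-/- replicate 1 (−0.12).

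**Figure D2:**
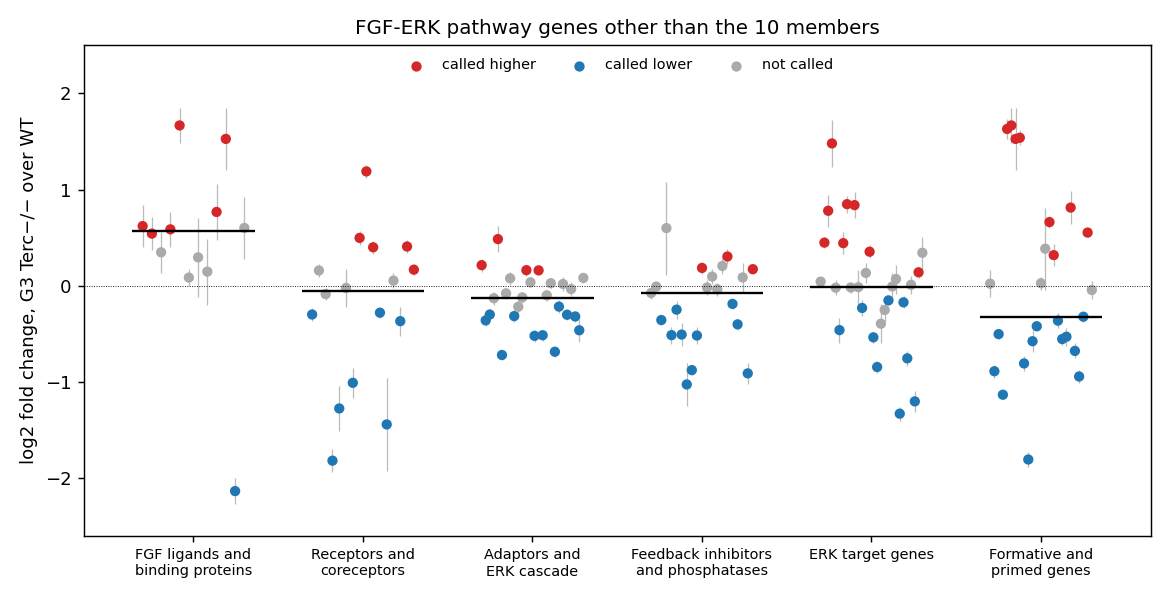
Log2 fold changes (G3 *Terc*-/- over WT, y axis) of the tested genes of 6 pathway lists other than the 10 described, in alphabetical order within a list, with bars for the standard error and black lines for the list median. Red points were called higher, blue points lower and grey points not called; the medians of these lists run from −0.32 for formative and primed genes to 0.56 for FGF ligands and binding proteins.

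Other genes of the formative and primed states went in both directions. Of the 25 listed beside the 10, 8 were called higher and 13 lower, against 21.7% and 21.8% of all genes tested. The median log2 fold change of the 25 was −0.32. *Dnmt3b*, the de novo methyltransferase gene induced in formative cells, was lower (log2 fold change −1.13, SE 0.05), from 514 and 523 CPM to 231 and 241 CPM. *Krt18* (−1.81, SE 0.07) was lower, and so was *Lin28a*, the most abundant by counts (−0.42, SE 0.05). *Tcf7l1* was lower (log2 fold change −0.94, SE 0.07), and the 34 genes tested between 70 and 75 Mb of chromosome 6, where it lies, had a median of −0.92; none of the 10 genes is on that chromosome. *Fgf15*, *Eomes* (1.63, SE 0.10) and *Foxd3* (1.54, SE 0.08) were higher. Of 15 naive and core pluripotency genes other than *Fgf4*, 13 were called higher and 1 lower, with a median of 0.44. *Tbx3* (1.81, SE 0.05), *Tcl1* (1.15, SE 0.07) and *Nanog* (1.13, SE 0.05) were the highest, and *Dppa3* (−1.22, SE 0.08) was lower. *Nanog* and *Dppa3* lie in a stretch of chromosome 6 whose 52 tested genes had a median of 0.61.

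Compared per length within a genotype, the 10 genes spanned more than 2 orders of magnitude in WT ESCs. The order there was *Etv5* (102 RPKM), *Fgf4* (74.0), *Etv4* (63.1), *Dusp6* (31.4), *Spry4* (15.8), *Zic2* (11.6), *Pou3f1* (7.32), *Otx2* (2.25), *Sox3* (1.90) and *Fgf5* (0.508). In G3 *Terc*-/- ESCs *Fgf4* (103 ± 9.89 RPKM, SD, n = 2) came first, and *Etv4* (62.3 ± 0.312) and *Etv5* (61.6 ± 0.309) differed by little more than the sum of their SDs. *Sox3* (3.25 ± 0.0111) stood above *Otx2* (2.64 ± 0.214) in G3 *Terc*-/- ESCs and below it in WT ESCs. With the length of the longest transcript, *Otx2* reached 4.30 RPKM in G3 *Terc*-/- ESCs and stood above *Sox3* in both genotypes, *Etv4* stood above *Fgf4* in WT ESCs (81.7 against 78.1 RPKM), *Etv4* and *Etv5* lay apart in G3 *Terc*-/- ESCs (80.7 against 63.6 RPKM), and *Zic2* and *Spry4* were nearly equal in G3 *Terc*-/- ESCs (17.3 against 17.2 RPKM).

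The 10 genes lie on 9 chromosomes of GRCm38, with *Otx2* and *Zic2* both on chromosome 14. *Fgf5* is at chr5:98254184-98277033, *Fgf4* at chr7:144861386-144865245, *Dusp6* at chr10:99263231-99267489 and *Etv5* at chr16:22381313-22439570. *Sox3* is at chrX:60891366-60893430 and *Zic2* at chr14:122475384-122480328.

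The RefSeq promoter table (GRCm38.p6) held entries for 5 of the 10 genes, *Otx2*, *Fgf5*, *Fgf4*, *Dusp6* and *Etv5*, with 9 starts among them. The 250 bases before each start were searched on both strands for the ETS motif CCGGAAGT, its core GGAA (which the longer motif contains), the octamer ATGCAAAT and the OTX motif TAATCC. The full ETS motif was in none of the 9 and in 2.88% of 32851 promoters, and the octamer in none and in 1.60%. TAATCC was in 1 of the 9, a start of *Otx2*, and in 6.25% of all. The core GGAA was in 7 of the 9 and in 93.4% of all promoters, so that its presence sets no promoter apart. A match describes letters and shows no binding.

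The promoters of the 4 called genes with an entry are printed because 2 of these genes were higher and 2 lower. Each is 250 bases before the start, 5′ to 3′ on the gene's strand, with GGAA or its reverse complement TTCC in capitals. *Fgf5* (chr5:98253934-98254183, plus strand) held 2 of these cores, *Dusp6* (chr10:99262981-99263230, plus strand) held 6, and *Fgf4* (chr7:144861136-144861385, plus strand) and the outermost start of *Etv5* (chr16:22439571-22439820, minus strand) held 0.
Fgf5: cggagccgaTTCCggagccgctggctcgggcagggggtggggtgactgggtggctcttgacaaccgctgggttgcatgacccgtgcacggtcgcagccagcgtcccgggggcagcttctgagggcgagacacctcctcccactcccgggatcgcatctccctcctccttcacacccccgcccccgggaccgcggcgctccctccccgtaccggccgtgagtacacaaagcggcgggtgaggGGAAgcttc
Fgf4: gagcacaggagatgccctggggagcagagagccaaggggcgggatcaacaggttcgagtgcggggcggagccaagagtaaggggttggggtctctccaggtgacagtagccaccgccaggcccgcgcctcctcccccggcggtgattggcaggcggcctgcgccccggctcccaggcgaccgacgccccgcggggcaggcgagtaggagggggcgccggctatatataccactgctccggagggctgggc
Dusp6: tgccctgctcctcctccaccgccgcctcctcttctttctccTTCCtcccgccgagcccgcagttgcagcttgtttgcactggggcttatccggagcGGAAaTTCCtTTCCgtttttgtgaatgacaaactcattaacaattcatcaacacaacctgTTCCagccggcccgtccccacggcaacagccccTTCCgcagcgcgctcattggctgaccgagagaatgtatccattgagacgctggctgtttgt
Etv5: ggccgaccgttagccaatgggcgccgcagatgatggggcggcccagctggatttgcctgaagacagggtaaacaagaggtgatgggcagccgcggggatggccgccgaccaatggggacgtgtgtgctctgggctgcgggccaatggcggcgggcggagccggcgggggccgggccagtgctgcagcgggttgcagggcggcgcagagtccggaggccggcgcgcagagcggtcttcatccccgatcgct

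Genes of other cell types that such cultures can hold were read beside the 10, since *Sox3*, *Zic2* and *Pou3f1* are also neural genes and *Fgf5* is made by some fibroblasts. Summed over the 22 feeder fibroblast genes, CPM were 509 and 340 in WT against 550 and 386 in G3 *Terc*-/- libraries. Of the 20 fibroblast genes tested, 8 were called higher and 1 lower, or 45%, against 43.5% of all genes tested. *Pdgfrb* (0.81), *Col6a1* (0.65) and *Col5a1* (0.58) were the highest where counts averaged 50 or more. The calls of *Col6a1* and *Col5a1* were lost by DESeq2, those of *Pdgfrb* and *Col6a1* without G3 *Terc*-/- replicate 1 and that of *Pdgfrb* without WT replicate 2. *Tagln* was lower (−0.25), a call lost by DESeq2, with library totals as the only scaling, and without WT replicate 1 or G3 *Terc*-/- replicate 2. *Acta2*, the most abundant by counts over the 4 libraries, gave 108 and 67.1 CPM in WT and 108 and 67.4 CPM in G3 *Terc*-/- libraries, and its log2 fold change ran from −0.38 to 0.39 with 1 library left out.

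Summed CPM of the 15 neural genes were 180 and 186 in WT against 211 and 206 in G3 *Terc*-/- libraries. *Olig2* (0.77, SE 0.08), *Sox1* and *Tubb3* (0.61, SE 0.07), the most abundant, were higher with *Sox3* and *Zic2*, while *Gbx2* (−0.57, SE 0.08) and *Map2* (−0.44, SE 0.13) were lower, the last call being lost by DESeq2 and without G3 *Terc*-/- replicate 2. Of 10 neural genes tested, 6 were called higher and 2 lower, and the markers of differentiated neural cells *Neurog2*, *Dcx* and *Pax3* had between 0 and 3 counts in each library. Mesendoderm genes summed to 16.6 and 18.4 CPM in WT and 40.8 and 40.0 CPM in G3 *Terc*-/- libraries, with *Eomes* the most abundant and 3 of 7 tested called higher, *T* (0.81, SE 0.17) among them. Primitive endoderm genes summed to 506 and 461 against 457 and 406 CPM; 6 of 13 were called lower and 1 higher (*Lama1*, 0.30), with *Cubn* (−1.88), *Gata6* (−1.43) and *Dab2* (−1.05) the lowest and *Lamb1*, the most abundant, not called (−0.07, though called lower without G3 *Terc*-/- replicate 1). Trophectoderm genes summed to 335 and 325 against 175 and 174 CPM, and 6 of 7 were called lower, with *Krt7* (−3.21), *Hand1* (−1.94) and *Krt18* the lowest and *Tfap2c* (−0.18) the most abundant by counts over the 4 libraries, the last call being lost without WT replicate 2. No listed gene was at 0 in every library apart from *Fgf6* among the ligands. The part of these cell types in the changes of *Fgf5*, *Sox3*, *Zic2* and *Etv5* was not tested.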

How the data were processed

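Poly(A) RNA-seq of 2 WT and 2 G3 *Terc*-/- libraries was used. The authors deposited raw gene counts without normalization; the submitters' processing notes name Trim Galore, STAR, featureCounts and mm10, with no versions. The strand setting is not given in the sources used here. The deposited counts on transposable elements were not used. Of 24116 gene identifiers, 24061 were matched to a symbol.

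Counts were fitted with edgeR 4.0.16 in R 4.3.3 (filterByExpr, TMM, glmQLFit and glmQLFTest, genotype as the only term), with Benjamini-Hochberg adjustment over all 14896 genes tested, and called at an adjusted p under 0.05. The SE is the log2 fold change over the square root of F. RPKM used the exon union of GENCODE M21, known for 23775 genes. Replicates differed beyond sampling noise (chi-square per gene 2.47 in WT and 3.74 in G3 *Terc*-/- ESCs). The fit was checked on simulated data. Figures were drawn with matplotlib 3.10.9.

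The 10 genes and all lists were chosen with earlier results of these data known, so no test was made over a list. Some genes, among them *Krt18*, *Eomes*, *T* and *Fgf15*, are shared by lists and are counted in each. The text names the paralogs of the 10 and, of each list, the most abundant gene and up to 3 called genes per direction with the largest change (mean counts of 50 or more); 2 such genes, counted in their lists, are not reported here. Alternatives were DESeq2 1.42.0, its size factors in edgeR, library totals, TMM without chromosome 6, no filter, a mean of at least 50 counts, the replicate number as a block, each library left out, a fold change over 2 with an unadjusted p under 0.05, and the longest transcript as length. Counts within the pathway lists under these alternatives were added after seeing the data.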

Additional observations from a re-analysis of the deposited data

How the results depend on the processing

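*Fgf5*, *Sox3*, *Zic2*, *Fgf4*, *Dusp6* and *Etv5* kept their direction and an adjusted p under 0.05 under every alternative fit run. For the 10 genes, 104 of 110 fold changes kept direction and side of the threshold, 2 passed it (*Spry4*) and 4 changed sign. *Pou3f1* changed sign without a filter (−0.00035) and ranged from −0.077 to 0.10 with each library left out, and *Etv4* was 0.017 with library totals. With those totals *Cic* was 0.026, *Epha2* 0.017 and *Fgfr4* 0.012, and *Cic* was 0.0036 at a mean of at least 50 counts. With each library left out, where the lone library of a genotype is assumed to vary like the other genotype, values ranged from −0.023 to 0.17 for *Fgf17*, −0.059 to 0.036 for *Cic*, −0.12 to 0.071 for *Epha2*, −0.17 to 0.097 for *Fgfr4*, −0.16 to 0.074 for *Zic5*, −0.47 to 0.016 for *Tagln*, −0.38 to 0.39 for *Acta2* and −0.16 to 0.0038 for *Lamb1*. The cause was not tested.

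At a fold change over 2 with an unadjusted p under 0.05, 1 of the 10 genes was higher and 0 lower, and 704 of all genes were higher and 466 lower, against 3238 and 3241 by adjusted p; the stricter fold is part of that rule. DESeq2 called 2076 genes higher and 2290 lower, and its calls among the FGF ligands (2 higher) and the cascade genes (1 higher) were fewer. With each library left out, 3 to 5 ligands were higher and 1 to 2 lower, 0 to 4 cascade genes were higher, and 0 to 3 feedback inhibitors were higher; fewer libraries were then used. These list counts were added after seeing the data. Library totals as the only scaling called 3684 genes higher and 2786 lower, with a median log2 fold change of 0.04.

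The labels tie the replicate numbers to no batch or date. Over all genes, the difference between replicates 1 and 2 correlated at 0.0617 between genotypes. The summed feeder fibroblast genes were nevertheless higher in replicate 1 of both genotypes. They reached 509 against 340 CPM in WT and 550 against 386 CPM in G3 *Terc*-/- libraries. Whether replicates of the same number shared a culture batch was not tested. With the replicate block, 3551 genes were higher and 3583 lower, and 4 and 2 of the 10 genes. Low counts limit *Fgf5* in WT (25 and 31 counts) and most FGF ligands.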
